A study of Mus musculus with 21 samples.

Results

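The Iroquois genes Irx1, Irx2, Irx3 and Irx5, together with Sim2, Tfap2b and Wfdc2, were followed as 7 genes linked to the intermediate and distal nephron, out of 18193 genes with a single symbol on the arrays. The genes were taken by name, and every probe set that carries 1 of these symbols was kept, which gave 9 of the 45037 probe sets tested. Irx1, Irx2, Irx3, Irx5 and Wfdc2 had 1 probe set each, and Sim2 and Tfap2b had 2 each.

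RNA came from mouse nephron progenitors that were sorted at embryonic day 16.5 by fluorescence from embryonic kidneys of a BAC transgenic line of mixed background carrying Six2GFPcre, so all 7 groups share this transgene, and the BAC uses regulatory sequence of Six2, a gene of the progenitors themselves. Each sample held 40000 cells, and each group had 3 arrays. The groups were aggregates given 24 h of 4 µM BIO followed by 24 h of DMSO, aggregates given BIO for 48 h, aggregates given BIO for 24 h, aggregates given DMSO for 24 h, dispersed cells given BIO for 24 h, dispersed cells given DMSO for 24 h, and freshly sorted cells. BIO is an inhibitor of glycogen synthase kinase, which activates Wnt/beta-catenin signalling, and DMSO is its solvent. No group of aggregates kept in DMSO for 48 h was analysed, so comparisons between 48 h and 24 h also carry time in culture. The labels call the arrays of a group biological replicates without tying them to separate litters or sorts, and p-values therefore measure the spread between these arrays.

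As background, nephron progenitors turn into an epithelial vesicle when canonical Wnt signalling is switched on, and that vesicle is soon patterned along an axis from a distal end, next to the collecting duct, to a proximal end that makes podocytes. Iroquois genes code for homeodomain transcription factors that lie in clusters. In the frog pronephros Irx3 is needed for the intermediate tubule, and in the mouse Irx1, Irx2 and Irx3 mark the intermediate part of the S-shaped body. Tfap2b codes for the transcription factor AP-2 beta and is needed for distal tubule development in the mouse, Sim2 codes for a basic helix-loop-helix factor related to the fly gene single-minded, and Wfdc2 codes for a secreted protein of the whey acidic protein family made by distal and collecting duct epithelium.

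Levels are given as normalised signals on a linear scale, and differences are on the scale of log2(signal + 1). A probe set was taken as above background when its signal exceeded 41.8, a level under which 95% of the values of 27 bacterial spike controls lay. In the deposited values, before normalisation, between 65.0% and 69.2% of the probe sets of an array passed that level. Six2, the progenitor transcription factor, was above background on all 21 arrays, with 8565 to 9270 in fresh cells. Its mean was 4683 in DMSO aggregates, 4764 in dispersed DMSO cells, 1795 in BIO aggregates and 1542 in dispersed BIO cells. After BIO and then DMSO it was 875, and after 48 h of BIO 491. With BIO, Six2 fell by 1.38 ± 0.13 in aggregates (SE, limma adjusted p = 1.28e-06) and by 1.62 ± 0.13 in dispersed cells (SE, adjusted p = 1.66e-07). The Wnt target Axin2 rose by 3.32 ± 0.17 with BIO in aggregates (SE, adjusted p = 1.53e-09) and by 4.25 ± 0.17 in dispersed cells (SE, adjusted p = 1.06e-10), by its brighter probe set. In the deposited values, a 3-prime beta-actin control probe set read between 2669 and 5410 on the 3 arrays of aggregates in BIO for 24 h. It read 6344 or more on each of the other arrays.

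In the RefSeq annotation of build GRCm38.p6, Irx3 lies at chr8:91798511-91801654 and Irx5 at chr8:92357796-92361456, 556 kb apart in 1 cluster with Irx6. Irx1 lies at chr13:71958232-71963723 and Irx2 at chr13:72624430-72634196, 661 kb apart in the other cluster with Irx4. Sim2 is on chromosome 16 (chr16:94085104-94127032), Tfap2b on chromosome 1 (chr1:19208908-19238845) and Wfdc2 on chromosome 2 (chr2:164562715-164568510). RefSeq promoter sequences were given for 4 of the 7 genes, Irx2, Irx3, Tfap2b and Wfdc2. The 250 bases before the start are printed for Irx3 and Wfdc2, because both genes were called in several comparisons, and for Irx2, because it held the one match found. The start used for Irx2 is that of a transcript that begins inside the span given for the gene. Each was searched on both strands for the TCF/LEF core CTTTGA and for the AP-2 core GCCNNNGGC, neither of which contains the other, and capitals mark a match.
Irx3, chr8:91801655-91801904, minus strand: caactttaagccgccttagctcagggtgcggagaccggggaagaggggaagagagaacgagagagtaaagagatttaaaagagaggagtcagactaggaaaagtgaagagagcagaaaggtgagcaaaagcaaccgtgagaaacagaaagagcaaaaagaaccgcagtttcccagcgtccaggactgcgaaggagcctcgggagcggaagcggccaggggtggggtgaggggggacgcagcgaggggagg
Wfdc2, chr2:164562465-164562714, plus strand: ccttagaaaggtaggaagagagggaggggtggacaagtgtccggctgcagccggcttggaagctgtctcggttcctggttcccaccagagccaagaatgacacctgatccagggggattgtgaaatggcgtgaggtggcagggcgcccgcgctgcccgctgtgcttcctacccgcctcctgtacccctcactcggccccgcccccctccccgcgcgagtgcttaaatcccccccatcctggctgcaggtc
Irx2, chr13:72628570-72628819, plus strand: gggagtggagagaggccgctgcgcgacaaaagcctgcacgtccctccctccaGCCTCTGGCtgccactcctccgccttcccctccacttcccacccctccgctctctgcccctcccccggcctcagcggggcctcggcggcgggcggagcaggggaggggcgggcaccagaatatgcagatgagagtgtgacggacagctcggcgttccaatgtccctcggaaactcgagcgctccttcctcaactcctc
The Irx2 window held 1 AP-2 match, whose first base lies 198 bases before the start, and no TCF/LEF match. The windows of Irx3, Wfdc2 and Tfap2b held neither. Among 27025 mouse promoters of the same 250 bases, 14.1% held the TCF/LEF core and 13.6% held the AP-2 core. These are letter matches and not measured binding.

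Irx3, Irx5 and Wfdc2 were the members measured throughout. Their group means were above background in all 7 groups, whereas the other 6 probe sets fell below it in at least 1 group. Irx3 and Irx5 exceeded background on 21 of 21 arrays, Wfdc2 on 20, Irx1 on 19, Irx2 on 5, the Sim2 probe sets on 13 and 6, and the Tfap2b probe sets on 5 and 0. In bulk RNA, fewer cells of a type and less RNA per cell cannot be told apart, and this holds for every level given here.

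Irx3 read 1339, 1022 and 1359 in aggregates given BIO and then DMSO, 1078, 1290 and 1209 when BIO was kept for 48 h, and 235, 217 and 194 after 24 h of BIO, against 93.2, 120 and 153 in DMSO aggregates. Dispersed cells read 549, 572 and 572 in BIO, against 75.1, 110 and 139 in DMSO, and fresh cells read 180, 150 and 132. The order of the group means therefore ran from aggregates given BIO and then DMSO, through 48 h of BIO, dispersed BIO, aggregated BIO, fresh and aggregated DMSO to dispersed DMSO. The arrays of the first pair in that order overlapped, as did those of fresh cells and both DMSO groups, and the remaining neighbours did not overlap.

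Irx5 read 241, 192 and 251 in aggregates given BIO and then DMSO, 2559, 1439 and 1570 when BIO was kept for 48 h, and 301, 345 and 239 after 24 h of BIO, against 102, 91.9 and 111 in DMSO aggregates. Dispersed cells read 1449, 1886 and 1796 in BIO, against 113, 121 and 86.5 in DMSO, and fresh cells read 97.0, 74.3 and 74.7. The groups formed a pair of plateaus without overlap, a high one shared by 48 h of BIO and dispersed BIO and a low one shared by both DMSO groups and fresh cells. Aggregates after 24 h of BIO and aggregates given BIO and then DMSO lay between them and overlapped each other.

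Wfdc2 read 762, 621 and 1059 in aggregates given BIO and then DMSO, 1666, 2340 and 1638 when BIO was kept for 48 h, and 455, 583 and 519 after 24 h of BIO, against 59.8, 87.2 and 39.2 in DMSO aggregates. Dispersed cells read 265, 241 and 289 in BIO, against 64.7, 94.6 and 98.7 in DMSO, and fresh cells read 404, 259 and 256. The 3 groups of BIO-treated aggregates did not overlap each other or any other group. Fresh and dispersed BIO arrays overlapped, and so did those of both DMSO groups, where 1 DMSO aggregate array fell below background.

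**Figure D1:**
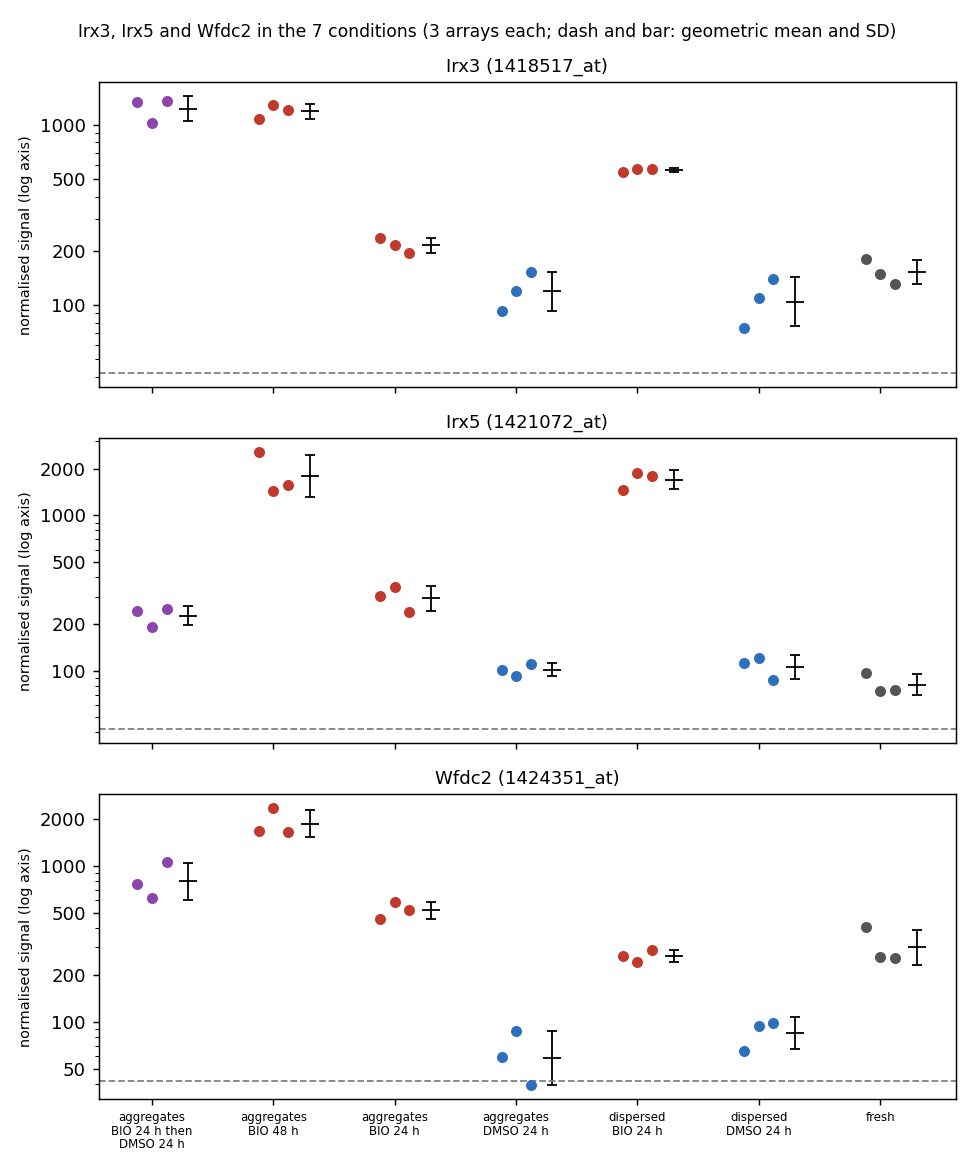
Normalised signal (log axis) of Irx3, Irx5 and Wfdc2 on each array in the 7 conditions, with points for single arrays, a dash and bar for the geometric mean and SD, and a dashed line at the background of 41.8. Irx3 is as high after BIO and then DMSO as after 48 h of BIO, whereas Irx5 on those arrays is 192 to 251 against 1439 to 2559.

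The effect of BIO at 24 h addressed how progenitors respond to Wnt activation. In aggregates all 3 of the bright genes rose with BIO. Wfdc2 rose by 3.11 ± 0.28 on the log2 scale (SE, adjusted p = 6.20e-07), which is 8.63-fold, Irx5 rose by 1.52 ± 0.21 (SE, adjusted p = 7.74e-05) and Irx3 by 0.84 ± 0.21 (SE, adjusted p = 0.00905), by limma with Benjamini-Hochberg adjustment over all probe sets tested. Thus 3 of the 9 probe sets rose and none fell, where 19.5% of all probe sets were called in this comparison and 10.6% were called higher. The other 6 did not pass, including Irx1 (54.3, 44.3 and 63.8 in BIO, against 71.5, 64.2 and 89.7 in DMSO), whose arrays did not overlap between the groups (-0.47 ± 0.29, SE, adjusted p = 0.314). The median change over the 9 was 0.27, and over all probe sets it was 0.05. The Irx3 call was lost when the beta-actin control was a covariate, where the difference was 0.18 (adjusted p = 0.834), when only the arrays compared were fitted (adjusted p = 0.0708), and without DMSO aggregate replicate 1 (0.66, adjusted p = 0.0514). That control was lower on each array of aggregates in BIO for 24 h than on any other array. Covariate and group are therefore not fully separable, here and wherever the covariate is used with that group.

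In dispersed cells the same 3 genes rose with BIO, and Irx5 moved most. Irx5 rose by 3.99 ± 0.21 (SE, adjusted p = 1.38e-09), 15.9-fold, Irx3 by 2.42 ± 0.21 (SE, adjusted p = 3.68e-07), 5.35-fold, and Wfdc2 by 1.63 ± 0.28 (SE, adjusted p = 4.61e-04), 3.10-fold. These were 3 of the 9 probe sets, against 18.5% of all called and 9.65% called higher. The arrays of the groups did not overlap for 4 of the 9 probe sets, these 3 genes, higher in BIO, and Irx1, lower in BIO. Irx1 read 37.7, 46.8 and 38.5 in BIO, with a group mean below background, against 65.9, 67.7 and 47.1 in DMSO. It was not called (-0.53 ± 0.29, SE, adjusted p = 0.251). The share of all probe sets without overlap was not computed.

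The BIO effect differed between aggregates and dispersed cells for the Iroquois pair. The interaction, the BIO effect in aggregates minus that in dispersed cells, was -2.47 ± 0.30 for Irx5 (SE, adjusted p = 0.00108) and -1.58 ± 0.30 for Irx3 (SE, adjusted p = 0.0221), so both rose less in aggregates. For Wfdc2 it was 1.48 ± 0.39 with the opposite sign and did not pass (SE, adjusted p = 0.128, interval 0.64 to 2.31). Only 0.617% of all probe sets had a called interaction, against 2 of the 9. Canonical Wnt targets leaned the same way as Irx3 and Irx5, with 0 of 11 measured genes called. Their median interaction was -0.56, against 0.02 over all probe sets, and their median BIO effect was 2.61 in aggregates and 3.74 in dispersed cells. For Axin2 the interaction was -0.93 ± 0.25 (SE, adjusted p = 0.126). The Irx3 interaction was lost when only the arrays compared were fitted (adjusted p = 0.0824) and without dispersed BIO replicate 2, dispersed BIO replicate 3 or DMSO aggregate replicate 2 (adjusted p = 0.0590, 0.0576 and 0.0515).

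Aggregation itself was tested in DMSO and in BIO. In DMSO 0 of the 9 probe sets passed in limma, 0 had an unadjusted p under 0.05, and 3.24% of all probe sets were called by adjusted p. The differences of aggregates from dispersed cells in DMSO were 0.19 ± 0.21 for Irx3, -0.06 ± 0.21 for Irx5 and -0.51 ± 0.28 for Wfdc2 (SE). In BIO, aggregates had less Irx5 than dispersed cells, with a difference of -2.54 ± 0.21 on the log2 scale (SE, adjusted p = 8.60e-06), and less Irx3, with -1.39 ± 0.21 (SE, adjusted p = 5.69e-04). Wfdc2 was higher in aggregates by 0.96 ± 0.28 (SE, adjusted p = 0.0280), so 3 of the 9 were called, against 15.6% of all. The Wfdc2 call was lost with the deposited scaling (adjusted p = 0.0778), with the beta-actin control as a covariate (adjusted p = 0.412) and on leaving out any 1 dispersed BIO array or aggregated BIO replicate 2 or 3 (adjusted p up to 0.0963). With the covariate Irx5 was still called for BIO in aggregates, for the interaction and for aggregation in BIO (adjusted p up to 0.0439).

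**Figure D2:**
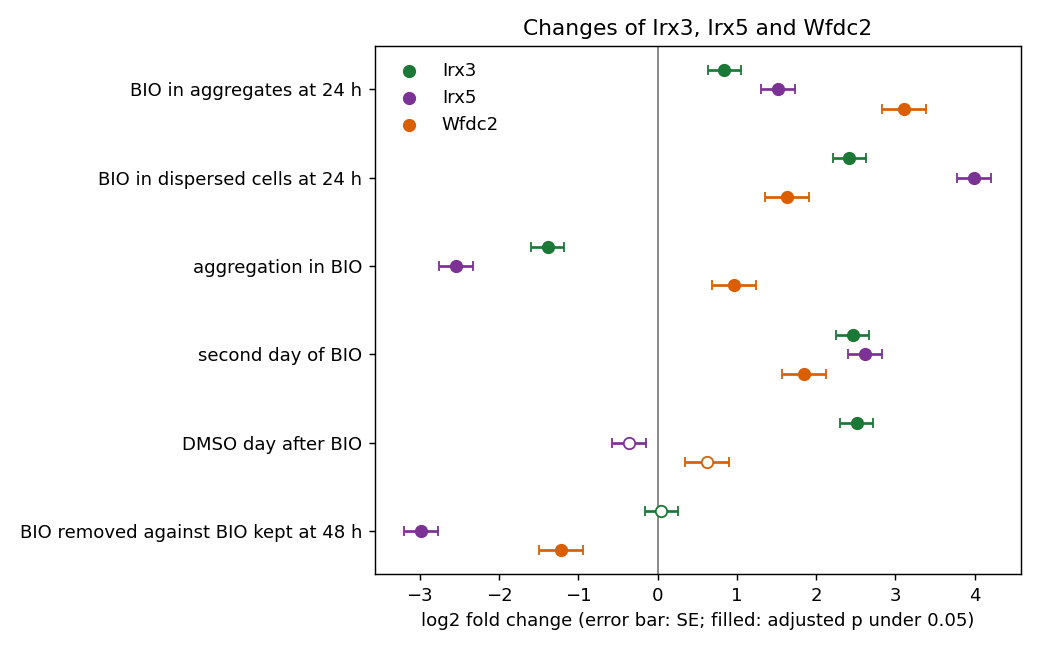
Log2 fold change of Irx3, Irx5 and Wfdc2 in 6 comparisons, with bars for the SE and filled points where the adjusted p is under 0.05. Irx3 and Wfdc2 lie on opposite sides of 0 for aggregation in BIO, and removal of BIO leaves Irx3 at 0.05 while Irx5 is at -2.98.

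The neighbours Irx3 and Irx5 both rose on a second day in BIO, whereas on a second day in DMSO only Irx3 of this pair was called. After 48 h of BIO, against 24 h of BIO, Irx5 rose by 2.62 ± 0.21 (SE, adjusted p = 7.87e-07), Irx3 by 2.46 ± 0.21 (SE, adjusted p = 1.17e-06) and Wfdc2 by 1.84 ± 0.28 (SE, adjusted p = 2.89e-04). Irx1 rose with them, with 109, 138 and 148 after 48 h of BIO, against 54.3, 44.3 and 63.8 after 24 h, a difference of 1.27 ± 0.29 (SE, adjusted p = 0.00729). One Sim2 probe set fell, so that 5 of the 9 were called, where 14.6% of all probe sets were. The Irx1 call was lost with the beta-actin control as a covariate, where the difference was 1.63 (adjusted p = 0.0632).

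When the second day was in DMSO, Irx3 rose as far, and Irx5 and Wfdc2 did not pass. Against aggregates after 24 h of BIO, Irx3 rose by 2.51 ± 0.21 (SE, adjusted p = 6.22e-07), whereas Irx5 differed by -0.36 ± 0.21 (SE, adjusted p = 0.257) and Wfdc2 by 0.62 ± 0.28 (SE, adjusted p = 0.131). Irx1 was at 152, 83.7 and 86.3 in aggregates given BIO and then DMSO and was called higher by 0.93 ± 0.29 (SE, adjusted p = 0.0320), a call lost without replicate 1 of that group (0.66, adjusted p = 0.150), without replicate 1 or 2 of the 24 h group (adjusted p = 0.0725 and 0.117), with only the arrays compared (adjusted p = 0.102) and with the covariate (adjusted p = 0.292). In all 4 of the 9 probe sets were called, Irx1, Irx3, 1 of Sim2 and 1 of Tfap2b, against 20.9% of all. The comparisons of 48 h of BIO and of the DMSO day with 24 h of BIO share the arrays of aggregates after 24 h of BIO.

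The direct comparison of aggregates from which BIO was removed with those in which it was kept, both at 48 h, does not carry time in culture. Irx5 was 7.89-fold lower after removal, a difference of -2.98 ± 0.21 (SE, adjusted p = 9.12e-08), and Wfdc2 was 2.33-fold lower, with -1.22 ± 0.28 (SE, adjusted p = 0.00722). Irx3 differed by 0.05 ± 0.21 (SE, adjusted p = 0.922), with a 95% interval of -0.40 to 0.49. The 3 Irx3 arrays of both groups overlapped, and the 3 Irx5 arrays did not. In this comparison 4 of the 9 probe sets were called, 2 higher and 2 lower, against 12.6% of all, with 6.25% higher and 6.34% lower. The Wfdc2 call was lost when only the arrays compared were fitted (adjusted p = 0.0689).

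Because Irx3 and Irx5 sit on the same array, the log2 signal of Irx5 minus that of Irx3 was taken within each array, where only its change between groups can be read. It was -2.44 ± 0.03 on the arrays given BIO and then DMSO and 0.59 ± 0.58 on those given 48 h of BIO (SD, n = 3 each), with no overlap and an exact permutation p = 0.1, the smallest that 3 against 3 arrays allow. The same quantity was 0.44 ± 0.20 in BIO aggregates and -0.24 ± 0.32 in DMSO aggregates, and 1.59 ± 0.17 in dispersed BIO cells and 0.02 ± 0.64 in dispersed DMSO cells (SD, n = 3 each), again without overlap and with an exact permutation p = 0.1 for both. All 12 such ratios tested among Irx3, Irx5 and Wfdc2 had this p, also after Benjamini-Hochberg adjustment, so none could pass 0.05.

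**Figure D3:**
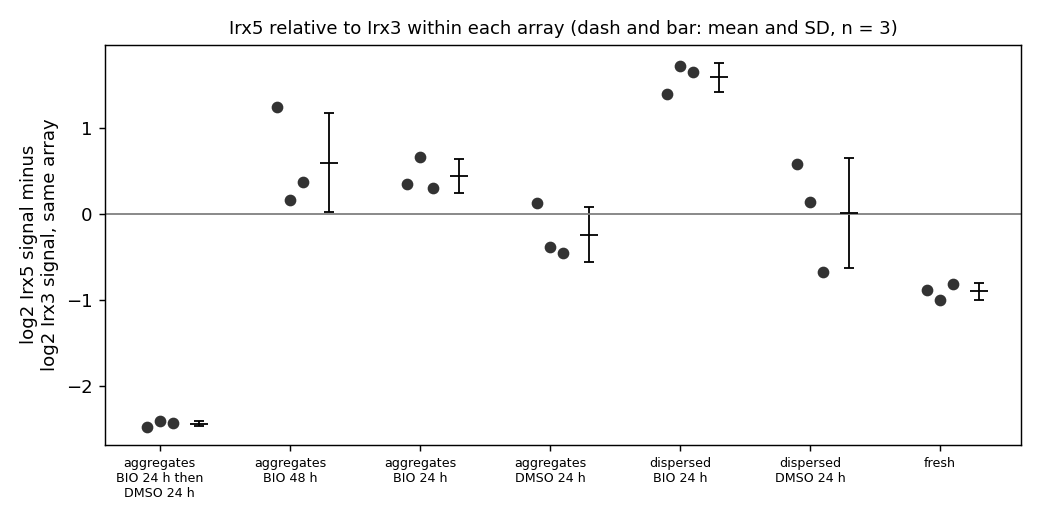
Log2 signal of Irx5 minus log2 signal of Irx3 on the same array, in the 7 conditions, with points for arrays and a dash and bar for the mean and SD of 3 arrays. The arrays given BIO and then DMSO lie near -2.44, below every other array.

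A pulse of BIO was also set against aggregates after 24 h of DMSO, a comparison that carries an added day in culture. Wfdc2 was higher by 3.73 ± 0.28 (SE, adjusted p = 2.31e-07), Irx3 by 3.35 ± 0.21 (SE, adjusted p = 3.53e-08) and Irx5 by 1.15 ± 0.21 (SE, adjusted p = 0.00155). With 1 Sim2 probe set below background in both groups, 4 of the 9 were called, against 16.3% of all. The Sim2 call was lost with the deposited scaling (adjusted p = 0.0689), with only the arrays compared (adjusted p = 0.106) and without DMSO aggregate replicate 2 or 3 or replicate 1 or 2 of the BIO and then DMSO group (adjusted p up to 0.125). The Tfap2b probe set 1435670_at did not pass (adjusted p = 0.0797) but did with the deposited scaling, with log2(value + 16) and with only the arrays compared (adjusted p between 0.0314 and 0.0489).

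Among the 9 probe sets, only Wfdc2 passed when culture in DMSO for 24 h was set against fresh cells. It was lower than in fresh cells by 5.01-fold in aggregates, a difference of -2.32 ± 0.28 (SE, adjusted p = 1.25e-05), and by 3.51-fold in dispersed cells, with -1.81 ± 0.28 (SE, adjusted p = 1.35e-04). The 1 called probe set of 9 stood against 27.2% of all in aggregates and 23.4% in dispersed cells. In limma, 2 of the 9 had an unadjusted p under 0.05 in aggregates and 4 in dispersed cells. The share of all probe sets under that unadjusted threshold was not computed. It is at least the 27.2% and 23.4% called by adjusted p, so nothing is read from these counts. Leaving out dispersed DMSO replicate 1 or 3 raised the count for dispersed cells to 3, with 1 Tfap2b probe set and Irx2 or Irx3 added. BIO aggregates had more Irx5 than fresh cells, by 1.83 ± 0.21 (SE, adjusted p = 1.40e-05), and more Wfdc2, by 0.78 ± 0.28 (SE, adjusted p = 0.0443), 2 of the 9 against 29.1% of all. That Wfdc2 call was lost on leaving out fresh replicate 2 or 3 (adjusted p = 0.143 for both) or any 1 BIO aggregate array, and with the deposited scaling, under which Tfap2b (1435670_at) was called lower instead (-1.94, adjusted p = 0.0404).

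The remaining members were near background. Irx2 read 67.1, 102 and 95.5 after 48 h of BIO, the only group in which all 3 arrays were above background, against 10.9, 29.0 and 22.8 after BIO and then DMSO. The arrays did not overlap, and the level was at least 2.05-fold higher with BIO kept, but the fit did not pass (adjusted p = 0.0796 against removal, adjusted p = 0.0505 against 24 h of BIO). It did pass against 24 h of BIO under 6 of the alternative settings, at adjusted p between 0.0123 and 0.0454, and against removal with log2(value + 16) (adjusted p = 0.0175) and with only the arrays compared (adjusted p = 0.0457).

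Tfap2b was read by 2 probe sets that did not move together. The probe set 1435670_at read 108, 56.3 and 64.9 after BIO and then DMSO, where all 3 arrays were above background, against 21.5, 22.8 and 7.13 after 48 h of BIO. It was at least 1.74-fold higher after removal (adjusted p = 0.0376) and also against aggregates after 24 h of BIO, at 9.04, 11.0 and 13.8 (adjusted p = 0.00975), a call lost with the beta-actin covariate (adjusted p = 0.387). Fresh cells read 102, 20.7 and 24.3, a spread of 1 array above background and 2 below. The call against BIO kept was lost with the covariate, when only the arrays compared were fitted, and on leaving out any 1 array of the BIO and then DMSO group or replicate 3 of the 48 h group (adjusted p up to 0.157). The probe set 1423340_at was not above background on any of the 21 arrays, so it gives no fold.

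Sim2 was likewise read by 2 probe sets that disagreed. The probe set 1419437_at read 72.7, 45.5 and 64.4 after BIO and then DMSO, against 27.8, 32.9 and 30.8 after 48 h of BIO, at least 1.42-fold higher after removal (adjusted p = 0.0442). This call was lost when only the arrays compared were fitted, with another variance prior and on leaving out 5 of the 6 arrays in turn (adjusted p up to 0.153). The probe set 1419438_at read 17.1, 10.6 and 26.7 after BIO and then DMSO, and with BIO kept 11.8, 29.8 and 13.0, all below background, against 44.0, 41.1 and 54.1 after 24 h of BIO. It was called lower in both 48 h groups, by at least 1.10-fold (adjusted p = 0.00970 with BIO removed and adjusted p = 0.0114 with BIO kept). Both calls were lost with the beta-actin covariate and with only the arrays compared, and 1 array decided each, replicate 2 of the BIO and then DMSO group (adjusted p = 0.0528 without it) and replicate 1 of the 48 h group (adjusted p = 0.0604 without it).

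**Figure D4:**
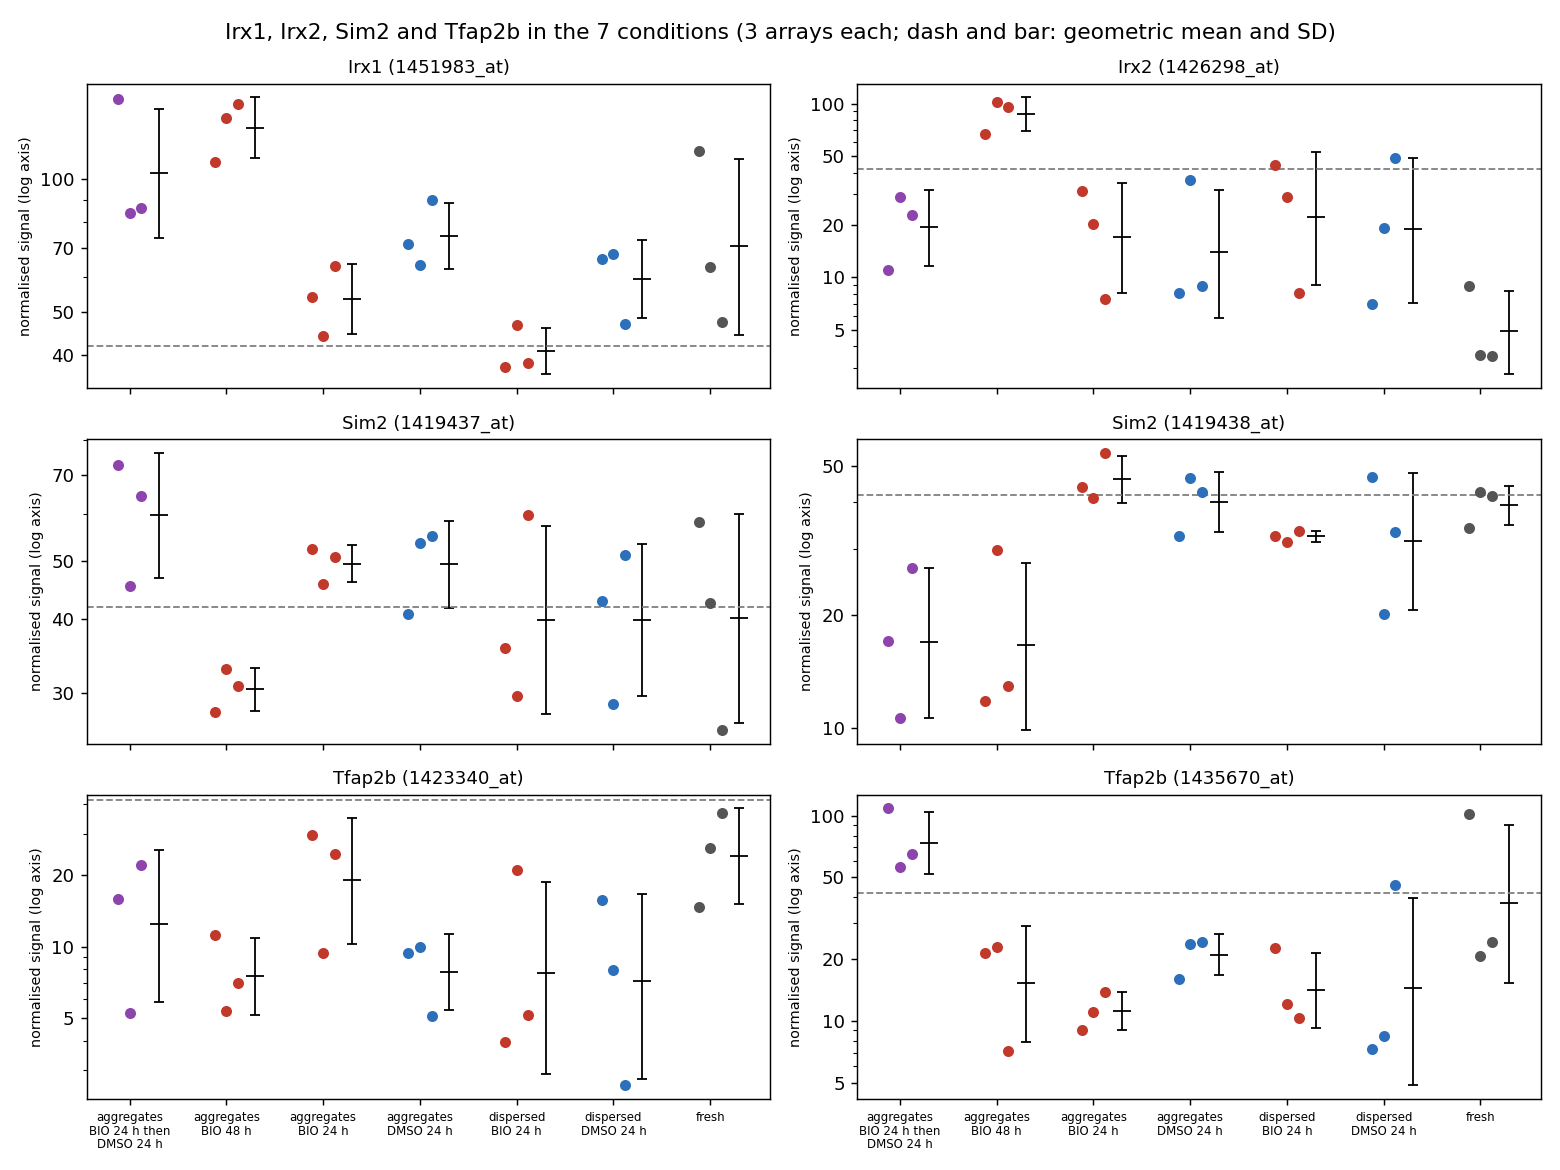
Normalised signal (log axis) of Irx1, Irx2 and both probe sets of Sim2 and of Tfap2b on each array in the 7 conditions, with a dash and bar for the geometric mean and SD and a dashed line at the background of 41.8. Irx2 is above the line on all 3 arrays only after 48 h of BIO, and Tfap2b (1435670_at) only after BIO and then DMSO.

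Of the other Iroquois genes, Irx6, next to Irx5, read 29.3, 30.2 and 41.7 after BIO and then DMSO, against 57.5, 127 and 50.5 after 48 h of BIO, and did not pass (adjusted p = 0.0648). Irx4 stayed below background on all 21 arrays, so the call that the fit gave it on removal (adjusted p = 7.58e-04) carries no fold. Genes within 1000 kb of the clusters, chosen after values were seen, were read in the same fit. In the Irx3, Irx5 and Irx6 interval, 1 of 18 other genes rose and 3 fell with BIO in aggregates, 22.2% against 19.5% of all probe sets. Fto, the gene beside Irx3, differed by -0.05 ± 0.08 with BIO in aggregates (SE, adjusted p = 0.733) and by 0.04 ± 0.08 on removal of BIO (SE, adjusted p = 0.820). Mmp2, a matrix metalloproteinase gene beyond Irx6, fell by 1.10 ± 0.10 with BIO in aggregates (SE, adjusted p = 1.05e-06) and was higher by 1.17 ± 0.10 on removal (SE, adjusted p = 9.37e-07). In the Irx1, Irx2 and Irx4 interval 5 of 19 other genes rose and 1 fell with BIO in aggregates, 31.6% against the same 19.5%, and in dispersed cells 36.8% were called against 18.5% of all. Nkd2, an inhibitor of Wnt signalling, was among those that rose in aggregates (1.84 ± 0.27, SE, adjusted p = 1.24e-04).

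The genes of the same pathway were counted by lists. Over all probe sets, 19.5% were called with BIO in aggregates, 18.5% with BIO in dispersed cells and 12.6% on removal. Of 9 measured genes of the distal renal vesicle, 4 rose and 0 fell with BIO in aggregates, with a median of 0.73. Lhx1, a transcription factor of the vesicle, rose at least 5.38-fold (adjusted p = 2.93e-09), Greb1 rose by 2.64 ± 0.43 (SE, adjusted p = 2.86e-04) and the ligand gene Bmp2 by 0.98 ± 0.14 (SE, adjusted p = 1.17e-04). In dispersed cells 1 of the 9 rose and 2 fell. On removal of BIO 3 were higher and 1 lower, among them Lhx1 (2.28 ± 0.32, SE, adjusted p = 1.18e-04), the Notch ligand gene Dll1 (1.81 ± 0.23, SE, adjusted p = 5.06e-05) and the cyclin gene Ccnd1 (1.48 ± 0.22, SE, adjusted p = 1.68e-04), while Irx5 and Wfdc2 were lower.

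Among 14 measured regulators of nephron segments, 3 rose and 0 fell with BIO in aggregates, Emx2 at least 5.24-fold (adjusted p = 4.54e-06), Mecom by 1.34 ± 0.13 (SE, adjusted p = 1.14e-06) and Pax8 by 1.22 ± 0.12 (SE, adjusted p = 2.00e-06). On removal 1 was higher, Pax8 by 1.56 ± 0.12 (SE, adjusted p = 2.21e-07), and 3 were lower, with Ppargc1a, a coactivator of metabolic genes, at -2.06 ± 0.32 (SE, adjusted p = 3.12e-04) and Tfap2a, the paralog of Tfap2b, at -0.85 ± 0.22 (SE, adjusted p = 0.0151). Of 12 genes of the Notch pathway, 4 rose and 3 fell with BIO in aggregates, and 7 were higher and 0 lower on removal. Over all probe sets, 19.5% were called with BIO in aggregates and 12.6% on removal. The 3 of 14 segment regulators called with BIO lie near that share. Genes of the mature loop of Henle and distal tubule were mostly not called, with 1 of 13 past the test in each of these comparisons. These were Trpm6 with BIO (0.89 ± 0.14, SE, adjusted p = 1.84e-04) and Wnk4 on removal (0.80 ± 0.23, SE, adjusted p = 0.0329). Slc12a3, Kcnj1, Cldn19 and Bsnd were below background in all 7 groups. Canonical Wnt targets had 8 of 11 higher with BIO in aggregates and 8 lower and 1 higher on removal.

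Markers of other cells moved in the same comparisons, and their part in the results was not tested. Over all probe sets, 19.5% were called with BIO in aggregates, 18.5% with BIO in dispersed cells and 12.6% on removal. The share was 14.6% on the second day of BIO and 20.9% on the DMSO day after BIO. The called ureteric bud and epithelial genes with BIO in aggregates were near the 19.5%. Of 8 interstitial stroma markers, 6 fell with BIO in aggregates, with a summed signal of 3875 to 4103 in BIO and 13908 to 14817 in DMSO, and 6 were higher on removal, with 10319 to 11631 after removal and 2162 to 2732 with BIO kept. Of 6 podocyte markers, 4 fell with BIO in aggregates (1684 to 2204 in BIO and 5394 to 6578 in DMSO) and 4 were higher on removal (6635 to 7048 after removal and 966 to 1359 with BIO kept). Of 12 markers of the ureteric bud and collecting duct, a tissue that also makes Wfdc2, 2 rose and 1 fell with BIO in aggregates, with a summed signal of 1741 to 2139 in BIO and 2256 to 2662 in DMSO. Gata3, a transcription factor of that lineage, was below background in every group but 48 h of BIO. On removal 2 of those 12 were lower and 0 higher. Of 9 epithelial genes, 2 rose with BIO in aggregates, and on removal 1 was higher and 4 were lower, with a median of -0.83. The cadherin gene Cdh1 was the higher one (2.23 ± 0.60, SE, adjusted p = 0.0204). Among the lower ones were Cldn7 (-1.70 ± 0.52, SE, adjusted p = 0.0423) and Spint1 (-1.50 ± 0.23, SE, adjusted p = 2.47e-04). Nephron progenitor markers had 5 of 10 higher and 5 lower with BIO in aggregates, and 2 higher and 4 lower on removal. Proximal tubule markers had 0 of 7 called there, endothelial markers 1 of 6 higher and leukocyte markers 1 of 6 higher and 1 lower, and on removal 2 of the endothelial markers were lower. With BIO in dispersed cells 6 of the 8 stroma markers were lower and 1 higher, 4 of the 6 podocyte markers were lower and 3 of the 6 leukocyte markers were lower. On the second day of BIO, where Irx1, Irx3, Irx5 and Wfdc2 rose, 6 of the 9 epithelial genes were higher and 0 lower, and 4 of the 10 progenitor markers were lower and 0 higher. On the DMSO day after BIO, where Irx3 rose, 5 of the 8 stroma markers, 4 of the 6 podocyte markers and 4 of the 9 epithelial genes were higher, and 7 of the 10 progenitor markers were lower.

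The genes whose pattern over the 21 arrays was most like each member were listed by Pearson r among 27977 probe sets, as a description over arrays that share 7 groups and treatment. For Irx3 these were Lgi2 (r = 0.947), Hpse (r = 0.932) and the BMP and Wnt pathway gene Bambi (r = 0.932). Closest to Irx5 were the Wnt inhibitor gene Apcdd1 (r = 0.952), Cachd1 (r = 0.948) and Itm2b (r = 0.948), and closest to Wfdc2 were Spata13 (r = 0.966), Mlec (r = 0.966) and Emid1 (r = 0.959). For the dimmer members the highest values were lower, at 0.873 for Irx1 with Slco3a1, 0.837 for Irx2 with Dnajc10, 0.810 for Tfap2b with Esrrg, a nuclear receptor gene, and 0.737 for Sim2 with Tfpt.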

How the data were processed

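Gene expression was measured on 21 mouse oligonucleotide arrays. The deposited values are linear signal intensities per probe set, made by the authors with software and scaling not given in the sources used here. Per the labels' protocols, RNA was amplified before biotin labelling, which favours 3-prime ends. The values were taken as log2(value + 1), quantile normalised, and compared with limma (version 3.58.1, under R 4.3.3) in a single model of 7 group means that used every array. All 45037 probe sets other than 64 controls were tested without a filter on low signal, Benjamini-Hochberg adjusted p-values were taken over all of them in each of 12 comparisons, and calls were made below 0.05. Code was tested on simulated data. Of these probe sets, 34945 had 1 gene symbol, 932 several and 9160 none. The members, gene lists and tests were chosen with earlier results of these data known. Named list genes were up to 3 with the largest changes past the threshold, by the probe set with the highest mean. Arrays within a group correlated at 0.965 to 0.987 on average. A probe set whose group is below background gives only a bound, computed against the background signal of 41.8, and no probe set's level is set against that of another. Precision is limited by 3 arrays per group.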

Additional observations from a re-analysis of the deposited data

Results flagged for a closer look

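Irx3 and Irx5 stood out because the effect of BIO differed between aggregates and dispersed cells by the interaction term. The effect in aggregates minus that in dispersed cells was -1.58 on the log2 scale for Irx3 and -2.47 for Irx5, both with a smaller rise in aggregates.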

How the results depend on the processing

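All member probe sets were refitted in each setting, and only changes called in the main fit were tallied for single probe sets, which gave 489 values. Of these, 431 kept their direction and their call, 58 kept the direction and lost the call, and 0 changed sign. Calls gained in a setting, such as those of Irx2, Irx3 and Tfap2b given above, are not in this tally. The settings were the deposited scaling, median centring, log2(value + 16), a filter on dim probe sets and 1 probe set per gene. Others were another variance prior, the replicate block, the beta-actin covariate, only the arrays compared, and each array left out. The dim filter, 1 probe set per gene, the other prior, the block and only the arrays compared leave the fold change as it was. In those settings the direction could not change, and only the call could. Counts out of 9 moved as follows. With only the arrays compared, the interaction had 1 call in place of 2, BIO removed against kept 2 in place of 4 (1 of the 4 kept, Irx5, with Irx2 gained at adjusted p = 0.0457), the DMSO day after BIO 2 in place of 4, and BIO aggregates against fresh 1 in place of 2. With the beta-actin covariate, the second day of BIO had 3 in place of 5, the DMSO day 1 in place of 4, and BIO aggregates against fresh 1. With the replicate number as a replicate block, BIO removed against kept had 2, with Sim2 (adjusted p = 0.0534) and Tfap2b (adjusted p = 0.0528) lost, and BIO aggregates against fresh had 1. Arrays with the same number were not more alike on average, with a mean correlation of deviations of -0.042, against 0.0204 for different numbers. Single pairs with the same number ran from -0.468 to 0.324. The deviations were taken from means of 3 arrays, which ties these averages together. Whether the numbers mark a shared sort or litter is therefore not settled. Leaving out 1 array gave 1 to 2 calls for the interaction, 2 to 3 for BIO removed against kept, 1 to 3 for DMSO dispersed cells against fresh and 1 to 2 for BIO aggregates against fresh. The causes were not tested. With the deposited scaling the share of higher among called probe sets was 43.8% in place of 54.2% for BIO in aggregates, 13.3% in place of 32.4% for aggregation in DMSO, 24.2% in place of 47.9% for aggregation in BIO, 55.3% in place of 45.0% for the second day of BIO, 66.6% in place of 48.1% for the DMSO day and 37.2% in place of 54.2% for BIO aggregates against fresh. With median centring it was 44.3% for aggregation in DMSO and 38.0% in place of 49.6% for the pulse. The median of all probe sets for aggregation in BIO was 0.11, and -0.03 with the deposited scaling. Signals near background limit Irx2, Sim2 and Tfap2b.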
